A study of Mus musculus with 20 samples.

Results

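The genes described here are 10 immediate early genes, members of the FOS, JUN and EGR families together with Atf3. They were taken from a table of 54304 genes by their symbols: Fos, Fosb, Fosl1, Fosl2, Jun, Junb, Jund, Egr1, Egr2 and Atf3. Each symbol named 1 gene, and all 10 were among the 17435 genes tested. RNA sequencing had measured polyadenylated RNA of PDGFRβ-positive stromal cells, sorted from gonadal white fat of male mice 8 weeks of age (by the labels) that lived at 30 °C and ate a diet with 60% of its energy as fat for 1 month. Fibro-inflammatory progenitors (FIPs) were the LY6C-positive fraction, and adipogenic precursor cells (APCs) the fraction negative for both LY6C and CD9; cells with CD45 or CD31 on their surface were left out of each. There were 4 groups of 5 libraries: control APCs, APCs labelled Mural-Zfp423 transgenic, control FIPs and FIPs labelled Mural-Zfp423 transgenic. RNA of 2 mice was pooled in a library and 10 mice served per genotype, so FIP and APC libraries of a genotype drew on common mice, with no statement of which. The sources used here do not give the promoter that drives the transgene or what the controls carry of it.

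FOS proteins (Fos, Fosb, Fosl1, Fosl2) cannot pair with themselves and bind DNA as dimers with JUN proteins (Jun, Junb, Jund), and these dimers are the transcription factor AP-1. Egr1 and Egr2 are zinc finger factors that bind GC-rich sites, and Atf3 is a stress-induced partner of JUN proteins that often represses. Genes of this kind are transcribed within minutes of a stimulus without new protein synthesis: MAP kinases act on ELK and SRF at serum response elements and on CREB at cAMP response elements, and the messages decay quickly. Jund and Fosl2 are known for more sustained expression. Enzymatic dissociation and cell sorting are known to induce many of these genes. All 20 libraries came from dissociated and sorted fat, so the level in intact tissue and a rise during handling cannot be told apart.

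The promoters of 5 of these genes are shown because they carry the elements through which immediate early genes respond to stimuli. Each line gives the 130 bases upstream of a RefSeq transcript start (GRCm38.p6), 5′ to 3′ on the gene's strand. Capitals mark the core of the cAMP response element (TGACG, or CGTCA on the other strand), the AP-1 and ATF element of Jun (TGACATCA), the EGR site (GCGGGGGCG), the TATA box (TATAAA) and, in Egr2, a serum response element (CArG box) of 10 bases. The windows are chr12:85473760-85473889 on the plus strand for Fos, chr7:19310046-19310175 on the minus strand for Fosb, chr4:95052223-95052352 on the minus strand for Jun, chr8:84978749-84978878 on the minus strand for Junb and chr10:67537739-67537868 on the plus strand for Egr2.
Fos: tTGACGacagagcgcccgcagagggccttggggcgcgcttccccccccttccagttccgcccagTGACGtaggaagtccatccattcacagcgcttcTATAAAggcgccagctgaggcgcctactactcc
Fosb: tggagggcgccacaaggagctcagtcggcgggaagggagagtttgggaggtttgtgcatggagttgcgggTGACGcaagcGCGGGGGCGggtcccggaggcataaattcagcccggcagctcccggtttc
Jun: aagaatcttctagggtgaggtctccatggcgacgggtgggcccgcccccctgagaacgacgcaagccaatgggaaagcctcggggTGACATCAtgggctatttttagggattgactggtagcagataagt
Junb: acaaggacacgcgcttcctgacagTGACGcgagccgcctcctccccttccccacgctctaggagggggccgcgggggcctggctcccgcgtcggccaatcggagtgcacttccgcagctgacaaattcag
Egr2: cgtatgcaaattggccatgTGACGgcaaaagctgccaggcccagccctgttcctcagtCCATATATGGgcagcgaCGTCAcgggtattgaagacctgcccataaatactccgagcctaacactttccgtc

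The RefSeq promoter table held windows of 300 bases (250 before the start to 50 after it) for 8 of the 10 genes, 12 windows in all, 5 of them for starts of Egr2 and 1 for each other gene. Fosl1 and Egr1 had no entry. On both strands, TGACG occurred in 7 of the 12 windows, in those of Fos, Fosb, Junb, Atf3 and Egr2, against 20.8% of all 32851 windows in the table. The Egr2 windows with TGACG overlap and hold the same sites, so they are not separate cases. The CArG box occurred in 4 windows, all of Egr2, against 1.63% of all windows. Its form CCATATATGG is the same box in overlapping windows, and CCTTTTTTGG lies in a separate window. GCGGGGGCG occurred in 2, those of Fosb and Fosl2, against 2.91%. TGACATCA occurred in the window of Jun, against 3.62%, and TATAAA on the gene's strand in 2, those of Fos and Junb, against 8.32%. In Fos TATAAA began 33 bases before the start, and in Junb at position 1, the start itself, so not upstream of it. The consensus AP-1 site (TGACTCA or TGAGTCA) occurred in 0 of the 12 windows, against 5.20% of all. None of these motifs contains another, and a match describes the letters in the window only.

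Values are log2 CPM, the logarithm of reads scaled to library size, as deposited by the authors; a CPM of 1 or less is listed as 0. The step between low values, taken as the worth of 1 read, gave a depth of 6.605 to 8.505 megareads per library. Replicate 5 of the APCs labelled transgenic (6.605) and replicate 3 of the control FIPs (6.765) were the shallowest, and results that rest on them are given with and without them. Zfp423 did not rise with the label: its group medians were 4.97 log2 CPM in control APCs, 4.64 in APCs labelled transgenic, 5.47 in control FIPs and 5.53 in FIPs labelled transgenic, so directions between genotypes rest on the labels. Pdgfrb lay between 8.79 and 9.51 log2 CPM in all libraries, and Ly6c1 between 7.07 and 7.41 in FIPs and 4.88 and 5.83 in APCs. Cd9 lay between 6.51 and 6.67 in FIPs and 4.12 and 5.15 in APCs. Ptprc, which encodes CD45, and Pecam1, which encodes CD31, were not at 0 in any group (group medians 3.78 to 4.89 and 5.99 to 6.69).

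Together the 10 genes made up between 0.436% and 0.552% of the reads of a library. The median per group was 0.466% in control APCs, 0.476% in APCs labelled transgenic, 0.469% in control FIPs and 0.456% in FIPs labelled transgenic. Levels between genes were compared per kilobase of annotated exon (CPM per kb, median of 20 libraries). Fos stood at 222, Fosb at 193, Jun at 173, Junb at 170, Atf3 at 161 and Egr1 at 154 CPM per kb. These 6 lay between percentiles 99.4 and 99.8 of the 17430 tested genes with a length. Jund at 69.9, Fosl2 at 66.8 and Egr2 at 58.9 lay between percentiles 95.9 and 97.1. Fosl1 was the lowest of the 10 at 28.8 CPM per kb, at percentile 87.8. Fosl1, Jun, Junb, Jund and Atf3 each overlap another annotated gene (Ccdc85b, Junos, Prdx2, Gm11175 and Gm24748), and the strand setting of the counting is not given, so their levels may hold reads of those genes.

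**Figure D1:**
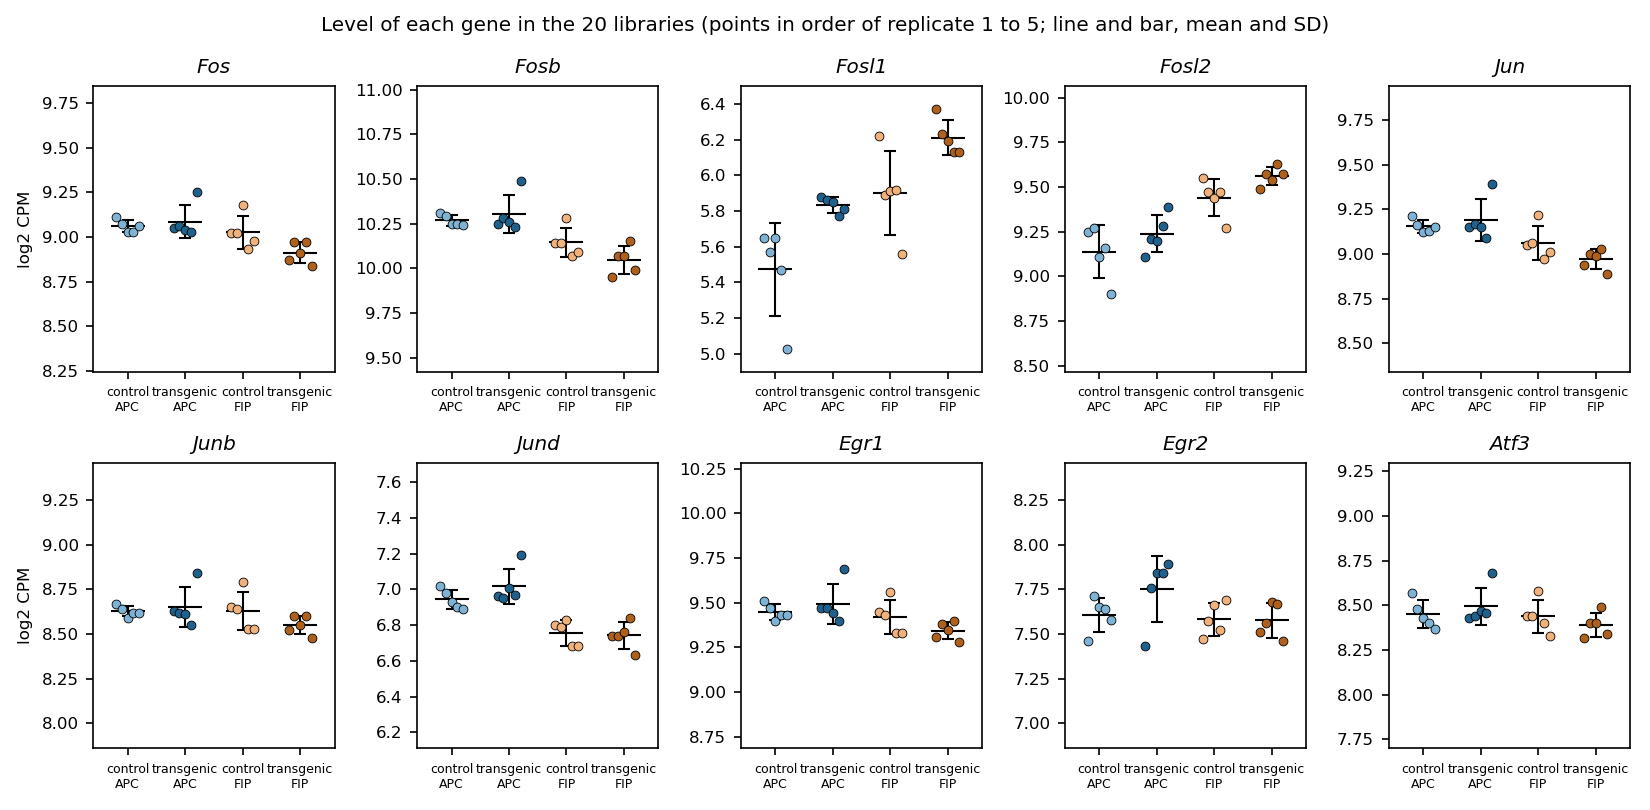
Level of each of the 10 genes (log2 CPM, vertical axis) in the 5 libraries of each group, with the group mean and SD. Fosl1 and Fosl2 stand higher in FIPs than in APCs, Jund stands lower in FIPs, and replicate 5 of the APCs labelled transgenic is the highest point of its group for 9 of the 10 genes.

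The spread within groups was small. The residual SD of a library around its group mean was between 0.0739 and 0.0862 log2 units for 7 of the genes (Fos, Fosb, Jun, Junb, Jund, Egr1 and Atf3). It was 0.107 for Fosl2, 0.124 for Egr2 and 0.183 for Fosl1. The median residual SD was 0.154 over all tested genes and 0.0729 over the 632 genes with a mean of at least 8 log2 CPM. The order of the group means was the same for Fos, Fosb, Jun, Jund, Egr1, Egr2 and Atf3: APCs labelled transgenic, control APCs, control FIPs, FIPs labelled transgenic. Junb had equal means in the control groups. For Fosl1 and Fosl2 FIPs labelled transgenic came first, then control FIPs, APCs labelled transgenic and control APCs. Neighbouring groups in these orders overlapped, except the control APCs and control FIPs of Jund and the APCs of Fosl1.

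The comparison of FIPs with APCs asked how the fibro-inflammatory and the adipogenic fraction of the same tissue differ. Fosl1 and Fosl2, which encode the FOS proteins FRA-1 and FRA-2, rose in FIPs of both genotypes: Fosl1 by 1.34-fold in control mice and 1.30-fold in mice labelled transgenic, Fosl2 by 1.23-fold and 1.25-fold. Jund, the JUN gene known for steady expression, fell in FIPs of both, by 1.14-fold and 1.21-fold. In control mice 4 of the 10 genes passed in limma at an adjusted p of 0.05, where 47.5% of all tested genes passed, so the share of these genes was close to that of all genes. Fosl1 and Fosl2 were higher in FIPs (2 of 10, against 19.6% of all genes), and Fosb and Jund lower (2 of 10, against 27.9%). In mice labelled transgenic 7 of the 10 passed, against 41.7% of all genes. Fosl1 and Fosl2 were again higher (2 of 10, against 22.7%), and Fos, Fosb, Jun, Jund and Egr1 were lower (5 of 10, against 19%). The median difference of the 10 genes was −0.03 log2 units in control mice and −0.16 in mice labelled transgenic, and that of all tested genes −0.06 and −0.01. With libraries centred on their medians, 44.3% in place of 54.5% of all genes that passed in mice labelled transgenic were higher in FIPs.

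Among the FOS genes, Fosl1, whose protein lacks the transactivation domain of FOS and is known from the control of cell migration and matrix genes, was measured in control APCs at 5.65, 5.57, 5.65, 5.47 and 5.03 log2 CPM and in control FIPs at 6.22, 5.89, 5.91, 5.92 and 5.56. The groups overlapped through replicate 5 of the FIPs, the lowest of its group, and replicate 5 was the lowest of the APCs as well. The difference was 0.43 (SE 0.11, limma, Benjamini-Hochberg adjusted p = 0.0024). In mice labelled transgenic, Fosl1 was measured at 5.88, 5.86, 5.85, 5.77 and 5.81 in APCs and at 6.37, 6.23, 6.19, 6.13 and 6.13 in FIPs, and the groups did not overlap. Here the difference was 0.38 (SE 0.11, limma adjusted p = 0.00655). Fosl1 passed in every fit run for both comparisons, with any 1 library left out and under every other setting.

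Fosl2, which in fat is known as a regulator of leptin expression, was measured in control APCs at 9.25, 9.27, 9.11, 9.16 and 8.90 log2 CPM and in control FIPs at 9.55, 9.47, 9.44, 9.47 and 9.27. The FIPs were higher except that replicate 5 stood level with replicate 2 of the APCs. The difference was 0.30 (SE 0.06, limma adjusted p = 0.000615). With the transgenic label, Fosl2 was measured at 9.11, 9.21, 9.20, 9.28 and 9.39 in APCs and at 9.49, 9.57, 9.54, 9.63 and 9.57 in FIPs. The groups did not overlap, and the difference was 0.32 (SE 0.06, limma adjusted p = 0.000316). Fosl2 also passed in every fit run for both comparisons.

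Fosb, a FOS gene with a short-lived message and a shorter splice form that accumulates, lay the other way. It was measured in control APCs at 10.31, 10.29, 10.25, 10.25 and 10.24 log2 CPM and in control FIPs at 10.14, 10.14, 10.28, 10.07 and 10.09. Only replicate 3 of the control FIPs, one of the shallowest libraries, reached into the APCs. The difference was −0.12 (SE 0.05, limma adjusted p = 0.0461); it turned to 0.04 under quantile normalization, and did not pass with libraries centred on their medians (−0.09, adjusted p = 0.398), with a trimmed mean of M-values (−0.10, adjusted p = 0.24) or without a filter. Fosb passed here in 7 of the 20 fits that left out 1 library, losing the threshold without any 1 control APC library, without control FIP replicates 1, 2, 4 or 5, and without replicates 2 or 3 of either group labelled transgenic. Without both shallowest libraries the difference was −0.16 and passed (adjusted p = 0.00175). The libraries labelled transgenic held Fosb at 10.25, 10.28, 10.26, 10.23 and 10.49 in APCs and at 9.95, 10.07, 10.07, 10.15 and 9.99 in FIPs. There the groups did not overlap, and Fosb fell by 0.26 on the log2 scale (SE 0.05, limma adjusted p = 0.000272), with a difference of −0.21 without both shallowest libraries. Under quantile normalization this difference was −0.11 and did not pass (adjusted p = 0.0692).

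Fos, the founding member, was measured in control APCs at 9.11, 9.07, 9.03, 9.03 and 9.06 log2 CPM and in control FIPs at 9.02, 9.02, 9.18, 8.93 and 8.98. The groups overlapped, and the difference of −0.03 did not pass (95% confidence interval −0.13 to 0.06, limma adjusted p = 0.572). Under quantile normalization it was −0.09 and passed (adjusted p = 0.0343). The libraries labelled transgenic held Fos at 9.05, 9.06, 9.04, 9.03 and 9.25 in APCs and at 8.87, 8.97, 8.91, 8.97 and 8.84 in FIPs. All FIPs lay below all APCs, and Fos fell by 0.17 on the log2 scale (SE 0.05, limma adjusted p = 0.00425). Without both shallowest libraries the difference was −0.13 (adjusted p = 0.00263).

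Among the JUN genes, Jund was measured in control APCs at 7.02, 6.98, 6.93, 6.90 and 6.89 log2 CPM and in control FIPs at 6.80, 6.79, 6.83, 6.68 and 6.68. All FIPs lay below all APCs, the only such gap among the 10 genes in control mice (1 of 10, against 31.4% of all tested genes without overlap). Jund fell by 0.19 on the log2 scale (SE 0.05, limma adjusted p = 0.00307), and with libraries centred on their medians the difference was −0.15 and did not pass (adjusted p = 0.0845). With the transgenic label, Jund was measured at 6.96, 6.95, 7.01, 6.97 and 7.19 in APCs and at 6.74, 6.74, 6.76, 6.84 and 6.63 in FIPs. Again no library overlapped, as for 6 of the 10 genes (Fos, Fosb, Fosl1, Fosl2, Jun and Jund) against 29% of all tested genes. Jund fell by 0.27 (SE 0.05, limma adjusted p = 8.91e-05), with the smallest p of the 10 genes in this comparison.

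Jun, the main transactivating JUN protein, was measured in control APCs at 9.21, 9.16, 9.12, 9.13 and 9.15 log2 CPM and in control FIPs at 9.05, 9.06, 9.22, 8.97 and 9.01. Replicate 3 of the FIPs was the highest of all 10 libraries and the other 4 were below the APCs. The difference of −0.09 did not pass (SE 0.05, limma adjusted p = 0.14). Without that library it was −0.13 and passed (adjusted p = 0.0299), as it did without both shallowest libraries (adjusted p = 0.00324) and under quantile normalization (−0.15, adjusted p = 0.00143). Under the transgenic label, Jun was measured at 9.15, 9.17, 9.15, 9.09 and 9.39 in APCs and at 8.94, 9.0, 8.99, 9.03 and 8.89 in FIPs. The groups did not overlap and Jun fell by 0.22 (SE 0.05, limma adjusted p = 0.00123), with a difference of −0.17 without both shallowest libraries. Junb, which often opposes Jun, lay between 8.59 and 8.67 in control APCs and 8.53 and 8.79 in control FIPs, with a difference of 0 (95% confidence interval −0.10 to 0.10). Under the transgenic label it lay between 8.55 and 8.84 in APCs and 8.48 and 8.60 in FIPs, and the difference of −0.10 did not pass (limma adjusted p = 0.12).

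Among the EGR genes, Egr1, a factor that links growth signals to matrix and growth factor genes, lay between 9.40 and 9.51 log2 CPM in control APCs and 9.33 and 9.56 in control FIPs. The difference of −0.03 did not pass (95% confidence interval −0.13 to 0.08, limma adjusted p = 0.676). In mice labelled transgenic, Egr1 was measured at 9.47, 9.47, 9.44, 9.40 and 9.69 in APCs and at 9.31, 9.38, 9.35, 9.40 and 9.28 in FIPs. The groups touched at 9.40, and Egr1 fell by 0.15 (SE 0.05, limma adjusted p = 0.0197). The call was lost with replicate 5 left out of the APCs labelled transgenic (−0.10, limma adjusted p = 0.0637). It was also lost with replicate 5 left out of the FIPs labelled transgenic (−0.13, adjusted p = 0.053). Egr1 passed in 18 of the 20 fits that left out 1 library and in 12 of the 12 other settings. Without both shallowest libraries the difference was −0.10 and passed (adjusted p = 0.0292). Egr2, known for its early role in fat cell differentiation, was measured in APCs labelled transgenic at 7.43, 7.76, 7.84, 7.84 and 7.89 and in FIPs labelled transgenic at 7.51, 7.56, 7.68, 7.67 and 7.46. Apart from replicate 1, the APCs lay above the FIPs; the difference of −0.18 did not pass (SE 0.07, limma adjusted p = 0.0565), and without that library it was −0.26 and passed (adjusted p = 0.000925). It also passed without control APC replicate 1 or without replicate 3 or 4 of the FIPs labelled transgenic, with libraries centred on their medians (−0.22, adjusted p = 0.0374), under quantile normalization (adjusted p = 0.0441), with a trimmed mean of M-values (−0.20, adjusted p = 0.0443) and with array weights (adjusted p = 0.0161). In control mice Egr2 differed by −0.03 (95% confidence interval −0.18 to 0.12).

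Atf3 lay between 8.37 and 8.57 log2 CPM in control APCs and 8.33 and 8.58 in control FIPs, and the difference of −0.01 did not pass (95% confidence interval −0.12 to 0.10). In mice labelled transgenic it lay between 8.43 and 8.68 in APCs and 8.32 and 8.49 in FIPs, a difference of −0.11 that did not pass (interval −0.21 to 0.00, limma adjusted p = 0.112). With the sign of a difference as the measure, 7 of the 10 genes were lower in control FIPs and 8 of the 10 in FIPs labelled transgenic. In control mice the sign of Fos, Egr1, Egr2 and Atf3 turned when libraries were centred on their medians.

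**Figure D2:**
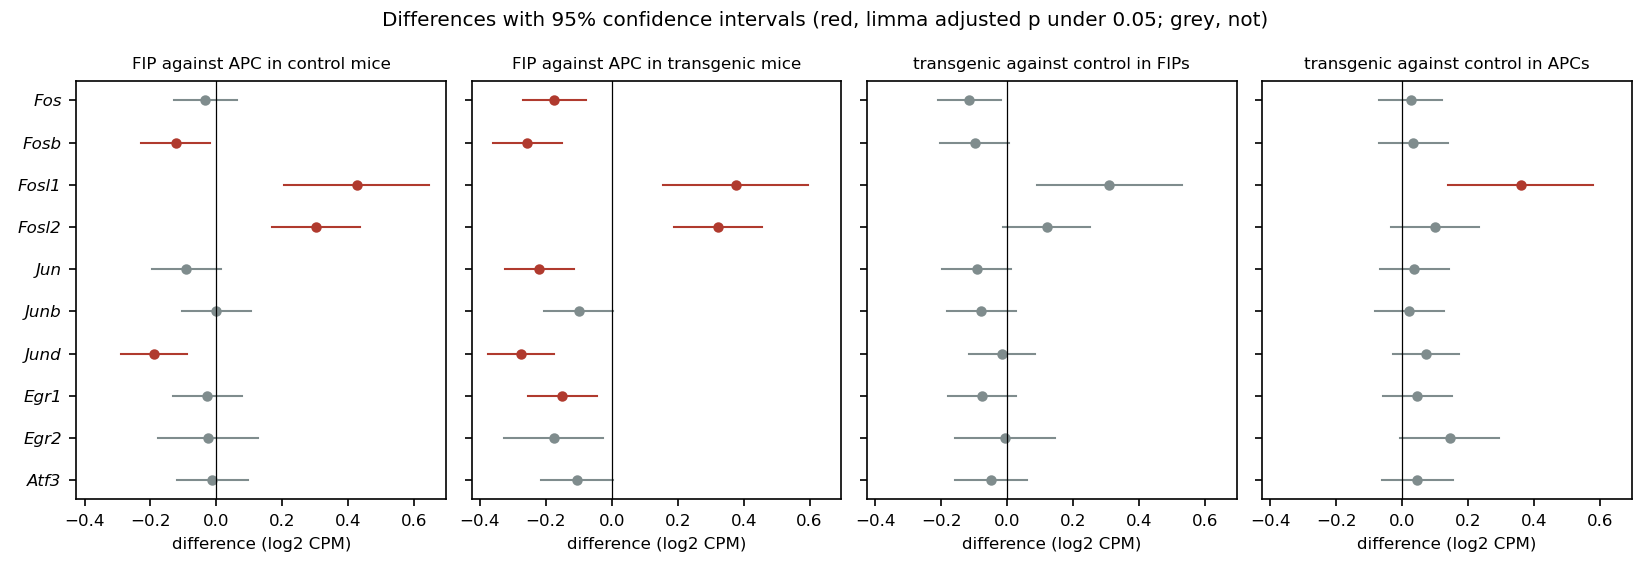
Difference of each gene in log2 CPM (horizontal axis) with its 95% confidence interval, for FIP against APC in each genotype and for the labelled genotypes within each cell type. Fosl1 and Fosl2 lie right of 0 in both left panels, 5 genes pass on the lower side in mice labelled transgenic, and Fosl1 in APCs is the only call between genotypes.

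The comparison of genotypes asked whether these genes differ in precursor cells of the Mural-Zfp423 line. In APCs Fosl1 rose 1.28-fold in the libraries labelled transgenic, and no other gene of the 10 passed (1 of 10 higher and 0 lower, where 2.1% of all tested genes were higher, 5.91% lower and 8.01% passed in either direction). The 5 libraries labelled transgenic lay between 5.77 and 5.88 log2 CPM and the controls between 5.03 and 5.65, with no overlap (1 of 10 genes, against 2.92% of all). The difference was 0.36 (SE 0.11, limma adjusted p = 0.0432). Without replicate 5 of the controls, the lowest library, it was 0.25 and did not pass (adjusted p = 0.125), and it passed in 8 of the 20 fits that left out 1 library. The threshold was also lost without control APC replicates 3 or 4, without replicates 2, 3, 4 or 5 of the APCs labelled transgenic, without control FIP replicates 2, 3 or 4 and without replicates 2 or 3 of the FIPs labelled transgenic. It did not pass without both shallowest libraries either (0.37, adjusted p = 0.119), nor with the APC libraries fitted alone, where 0 of all genes passed in place of 1396.

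The other 9 genes lay between 0.02 and 0.14 above the controls in APCs. The largest of these values was that of Egr2, 0.14 (95% confidence interval −0.01 to 0.29, limma adjusted p = 0.216), which was 0.22 and passed without replicate 1 of the APCs labelled transgenic (adjusted p = 0.0106). The median of the 10 was 0.05, against −0.03 over all genes. Without replicate 5 of the APCs labelled transgenic, Fos (−0.02), Fosb (−0.01), Jun (−0.01), Junb (−0.03) and Egr1 (−0.003) lay on the other side of 0, and Fos, Jun and Junb did so under quantile normalization. Of all genes that passed in APCs, 26.2% were higher, and 48.5% with libraries centred on their medians, 46.3% under quantile normalization and 36.9% with a trimmed mean of M-values. Without both shallowest libraries 127 genes passed in place of 1396.

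In FIPs 0 of the 10 genes passed between genotypes in limma, where 0.373% of all tested genes passed (0.241% higher and 0.132% lower). At an unadjusted p under 0.05 there were 2: Fosl1 with a difference of 0.31 (95% confidence interval 0.09 to 0.53, adjusted p = 0.246) and Fos with −0.11 (interval −0.21 to −0.02, adjusted p = 0.365). For Fosl1 the libraries labelled transgenic lay between 6.13 and 6.37 and the controls between 5.56 and 6.22, so 1 control library reached into the other group. No gene of the 10 was without overlap (0 of 10, against 2.89% of all). The median of the 10 was −0.06, and that of all genes 0.01. Of the genes that passed among all tested, 64.6% were higher, and 51.9% with libraries centred on their medians, 53.6% under quantile normalization and 51.6% with a trimmed mean of M-values.

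The difference between these genotype effects in FIPs and APCs was tested as an interaction. In limma 0 of the 10 genes and 0% of all tested genes passed in either direction (0% higher and 0% lower), and 1 of the 10, Fos with −0.14 (95% confidence interval −0.28 to −0.00, adjusted p = 0.352), had an unadjusted p under 0.05. Of all genes 2388 had one. Other settings passed 3 genes on the scale of log2(CPM + 1), 1 under quantile normalization, 176 with array weights and 2 without both shallowest libraries, and 0 of the 10 in each. A call of Fos, Jun or Egr1 in mice labelled transgenic and not in controls was not shown to be a difference between the genotypes.

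Library by library, 7 of the 10 genes moved together within groups. The deviation of a gene from its group mean correlated over 20 libraries with the mean deviation of the other 9 at r = 0.927 for Atf3, 0.917 for Jund, 0.887 for Egr1, 0.875 for Fosb, 0.859 for Junb, 0.842 for Jun and 0.835 for Fos. For Fosl2 r was 0.658, and for Egr2 and Fosl1 it was 0.193 and 0.192. Without both shallowest libraries r was between 0.685 and 0.871 for the 7, 0.694 for Fosl2, −0.05 for Egr2 and 0.323 for Fosl1. These are descriptions, because all genes of a library share its depth and scaling.

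The median of the strongly expressed genes moved with these genes. The mean deviation of the 10 genes had the sign of the median deviation of the other 625 genes at 8 log2 CPM or more in 18 of 20 libraries (Pearson r = 0.961, Spearman rho = 0.960). It had the opposite sign to the median of the 3373 genes between 2 and 4 log2 CPM in 15 of 20, and ran against depth (r = −0.82). In replicate 5 of the APCs labelled transgenic the 10 genes lay 0.156 above their group mean, the strongly expressed genes 0.074 above and the genes between 2 and 4 log2 CPM 0.136 below. In replicate 3 of the control FIPs these values were 0.105 above, 0.038 above and 0.06 below. These libraries were the highest of their groups for 9 and 7 of the 10 genes. Whether depth has a part in the movement was not tested.

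Between groups, too, level classes differed. Of the 625 other genes at 8 log2 CPM or more, 36.5% were lower and 23.7% higher in FIPs labelled transgenic than in APCs labelled transgenic, against 15.3% and 24.1% of the genes between 2 and 4 log2 CPM. Fos, Fosb, Jun and Egr1, which fell in that comparison, all belong to the upper class. Jund lies between 6 and 8 log2 CPM, where 24.9% were lower. The part of level class in these calls was not tested.

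**Figure D3:**
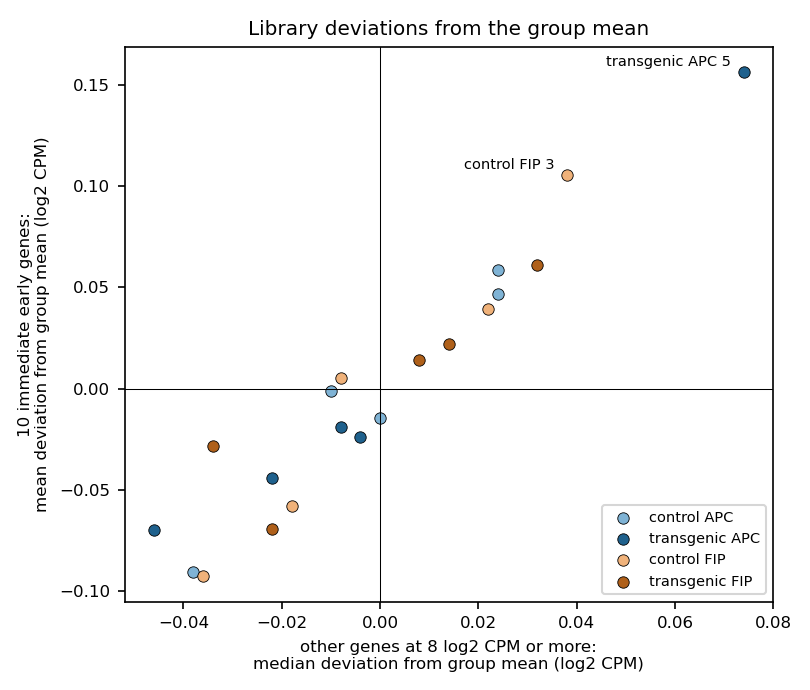
Mean deviation of the 10 genes from their group mean (vertical axis, log2 CPM) against the median deviation of the other genes at 8 log2 CPM or more (horizontal axis), 1 point per library. Replicate 5 of the APCs labelled transgenic and replicate 3 of the control FIPs stand highest on the vertical axis, at 0.156 and 0.105.

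The 8 genes most like the mean of the 10, by Pearson r of their deviations from the group mean over the 20 libraries, were Lamc1 (0.957), Btg2 (0.945), Socs3 (0.940), Klf4 (0.937), Cxcl1 (0.934), Ccl7 (0.933), Rnase4 (0.932) and Dpep1 (0.931). Lamc1 encodes a laminin chain, Btg2 an antiproliferative protein, Socs3 an inhibitor of cytokine signalling and Klf4 a zinc finger factor. Btg2, Socs3, Klf4 and Cxcl1 belong to the list of other immediate early genes used below. Their mean levels lay between 7.13 and 10.3 log2 CPM. Each was highest among the APCs labelled transgenic in replicate 5 and among the control FIPs in replicate 3, libraries that weigh heavily in the r by which these genes were chosen.

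The lists of other genes that follow are read against all tested genes. Of these, 19.6% were higher and 27.9% lower in FIPs of control mice (median −0.06), and 22.7% and 19% in mice labelled transgenic (median −0.01). Between genotypes in APCs, 1396 of all tested genes passed in the main fit and 127 without both shallowest libraries. With only the APC libraries fitted 0 passed, so no call of that comparison given below holds in that fit. Upstream, the serum response and CREB arm held 18 measured genes, of which 5 were higher and 4 lower in FIPs of control mice and 5 and 5 in mice labelled transgenic (median 0.05 in each). Srf, the factor that binds the serum response element, fell in FIPs, with a difference of −0.39 in control mice (limma adjusted p = 8.65e-06) and −0.62 in mice labelled transgenic (adjusted p = 1.45e-08). The CREB coactivator Crtc2 differed by −0.36 and −0.50, the SRF partner Elk4 by −0.25 and −0.29, and the SRF coactivator Mkl1 by 0.38 and 0.26. Srf (0.19) and Crtc2 (0.23) were the 2 genes of this arm that rose in APCs labelled transgenic against control APCs. Of 32 genes of the MAP kinase cascade, 3 were higher and 9 lower in FIPs of control mice and 4 and 11 in mice labelled transgenic (medians −0.04 and −0.05), and 0 passed between genotypes in limma (3 at an unadjusted p under 0.05 in either cell type). Mapk7, which encodes ERK5, differed by 0.75 and 0.82. Map3k5, a stress kinase, differed by −0.60 and −0.64.

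Feedback inhibitors of these pathways included the dual specificity phosphatases and Sprouty proteins. Of 22 genes, 5 were higher and 6 lower in FIPs of control mice and 4 and 8 in mice labelled transgenic (medians −0.02 and −0.07). Dusp14 rose in FIPs by 1.50 (limma adjusted p = 1.01e-06) and 2.30 (adjusted p = 1.73e-09), and Nab2, a corepressor that binds EGR proteins, by 0.36 and 0.39. Spry4 fell, with differences of −1.26 and −1.30, as did Spry1 (−0.68 and −0.79) and the ERK phosphatase Dusp6 (−0.76 and −0.92). Spry4 (0.19, limma adjusted p = 0.0432) and Dusp8 (0.29, limma adjusted p = 0.0497) rose in APCs labelled transgenic.

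The other factors of the bZIP and EGR families numbered 28. In FIPs of control mice 8 were higher and 8 lower, and in mice labelled transgenic 7 and 10 (medians 0.04 and 0.01). Nfil3, a repressor of the clock output, differed by 0.66 and 0.72, Bach2 by 0.96 and 1.34, and Nfe2l2, the antioxidant factor NRF2, by 0.28 and 0.27. Mafk, a small MAF partner, differed by −0.41 and −0.49, and Atf7 by −0.27 and −0.29. Egr4 was higher by 1.65 in control FIPs. In APCs labelled transgenic Mafk (0.29) and Atf4 (0.17) were higher, and in FIPs 0 passed between genotypes (6 at an unadjusted p under 0.05 in limma).

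Single genes among the other immediate early genes differed by more than any of the 10. Of 40 such genes, 13 were higher and 7 lower in FIPs of control mice and 13 and 15 in mice labelled transgenic (medians 0.04 and −0.08). Ptgs2, the inducible prostaglandin synthase, rose by 1.07 (limma adjusted p = 1.84e-09) and 1.03 (adjusted p = 2.89e-09), the orphan nuclear receptor Nr4a1 by 0.49 and 0.50, and the kinase Plk2 by 0.78 and 0.67. Arc, best known from neurons, fell, with differences of −1.13 and −1.39, and so did Trib1 (−0.22 and −0.36). Nr4a2 rose by 2.07 in FIPs of mice labelled transgenic. Nr4a2 (0.71) and Nr4a3 (0.53) were also the 2 genes of this list that rose in FIPs labelled transgenic against control FIPs (limma adjusted p = 0.0367 each). That is 2 of 40, against 0.241% of all tested genes. In APCs labelled transgenic 4 of the 40 rose, against 2.1% of all tested genes, among them Gadd45b (0.24) and Ier3 (0.22).

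Heat shock chaperones are also known to be induced by handling of cells. Of 19 genes, 2 were higher and 9 lower in control mice, with a median of −0.15 against −0.06 over all genes, and 1 and 10 in mice labelled transgenic, with a median of −0.15 against −0.01. Hspa1a, the inducible HSP70, fell, with differences of −0.91 (limma adjusted p = 1.25e-05) and −1.04 (adjusted p = 2.22e-06), as did Dnajb1 (−0.36 and −0.42), whereas the small heat shock protein gene Hspb1 rose by 0.85 and 0.87. In APCs labelled transgenic 4 of the 19 rose, against 2.1% of all tested genes, among them Hspa8 (0.24), Dnaja1 (0.22) and Hsp90aa1 (0.17).

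Downstream, 22 genes listed as targets of AP-1 or EGR were measured. In FIPs of control mice 10 were higher and 6 lower, and in mice labelled transgenic 11 and 8, with medians of 0.25 and 0.22 against −0.06 and −0.01 over all genes. Il11, a cytokine of fibroblasts, stood at 3.40 ± 0.19 log2 CPM in control FIPs and 1.08 ± 0.25 in control APCs (mean ± SD, n = 5 each; limma adjusted p = 3.22e-09). It rose by 2.32 there and by 1.83 in mice labelled transgenic. Fibronectin Fn1, which is also among the FIP markers used below, rose by 0.49 and 0.48 and the protease inhibitor Timp1 by 0.52 and 0.55. The urokinase gene Plau fell, with differences of −0.24 and −0.35, as did the matrix protease gene Mmp9 (−1.07 and −0.97) and Thbs1 (−0.14 and −0.30). In APCs labelled transgenic Hmox1 (0.48), Sphk1 (0.36) and Sqstm1 (0.12) were higher and Vegfa (−0.37) lower. Between genotypes in FIPs 0 of the 22 passed (2 at an unadjusted p under 0.05 in limma).

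**Figure D4:**
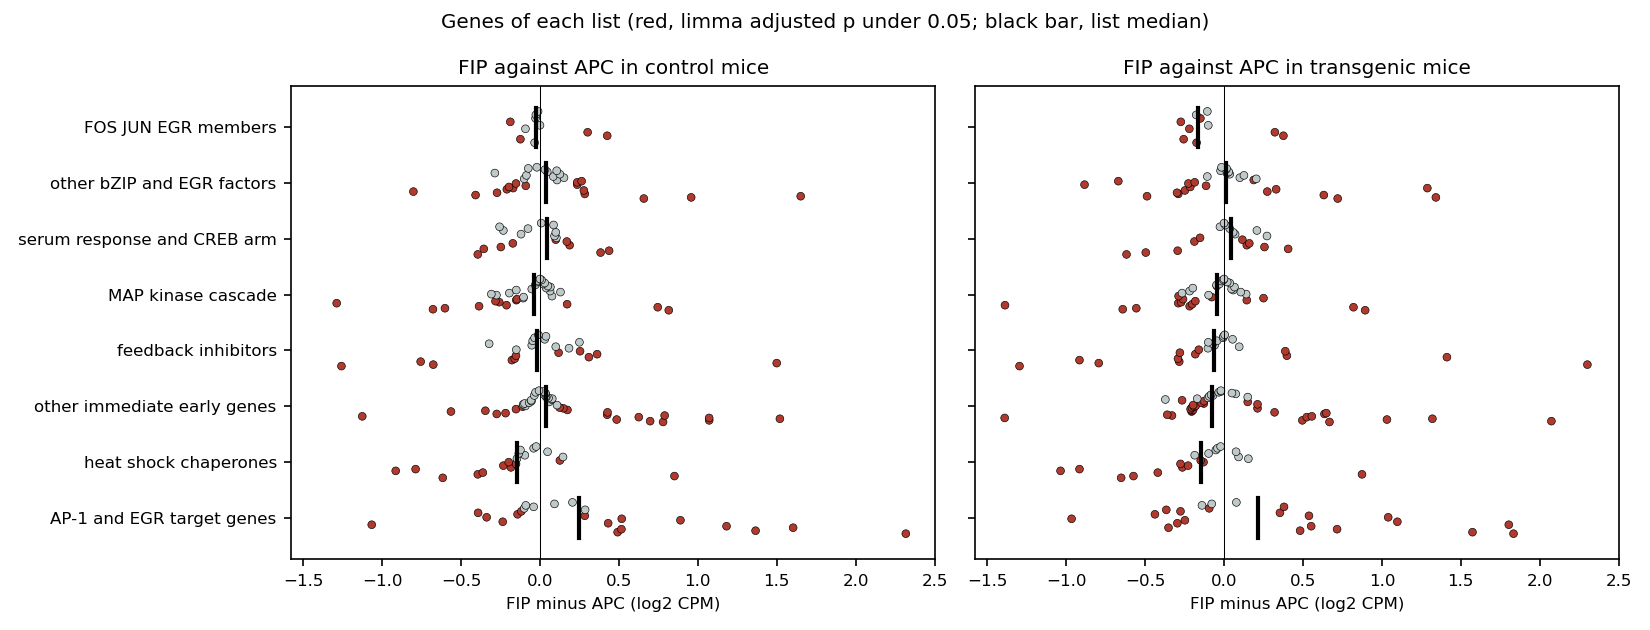
Difference between FIPs and APCs in log2 CPM (horizontal axis) for every measured gene of the 10 immediate early genes and of 7 other lists, in control mice and in mice labelled transgenic. The 10 genes stay between −0.27 and 0.43, while single genes of the other lists reach beyond 1 in either direction.

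Markers of other cells moved between the same groups. Of 12 mural cell markers 12 were lower in FIPs of control mice and 7 in mice labelled transgenic, and their summed level was 462 to 501 CPM in control FIPs, 846 to 1179 in control APCs, 478 to 608 in FIPs labelled transgenic and 796 to 930 in APCs labelled transgenic. Of 12 endothelial markers 11 were lower and 1 higher in control FIPs, with sums of 614 to 789 CPM against 693 to 912. In mice labelled transgenic 1 was higher and 0 lower, with sums of 703 to 897 CPM in FIPs against 581 to 792 in APCs. The 1 higher gene was Tek in each genotype (0.83 and 0.75), and at 8.06 log2 CPM in control FIPs it weighs heavily in these sums. Of 6 erythroid genes tested 6 were lower in control FIPs, with sums of 451 to 522 CPM against 805 to 1544 in control APCs, and 6 were lower in APCs labelled transgenic, with sums of 454 to 1043. In mice labelled transgenic 3 of the 6 were lower in FIPs, with sums of 308 to 559 CPM. Of 17 macrophage and leukocyte markers tested 9 were lower in APCs labelled transgenic, with sums of 206 to 342 CPM against 324 to 529 in control APCs, and S100a8 and S100a9 were at 0 in all libraries. Of 10 mesothelial markers 9 were lower in control FIPs (194 to 278 against 260 to 289 CPM). In FIPs labelled transgenic 2 were lower and 1 higher (227 to 259 against 187 to 262 CPM). The higher one was Wt1 (0.43), and at 7.57 log2 CPM in FIPs labelled transgenic it makes up most of their sum. Upk1b, for example, stood at 2.79 in control FIPs and 3.99 in control APCs. The part of these cells in the values of the 10 genes was not tested, and in bulk RNA fewer cells of a type and less RNA per cell cannot be told apart.

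Of the FIP and interstitial progenitor markers, 12 of 12 were higher in FIPs of each genotype. APC and committed preadipocyte markers were lower for 9 of 11 in control mice and 10 of 11 in mice labelled transgenic. The FIP list holds Ly6c1, Ly6c2 and Cd9, genes of proteins used in the sort, and the APC list holds Pdgfrb. Both lists were chosen with earlier results of these data known, so these counts are a description and no independent check of the sort. In APCs labelled transgenic, 8 of the 12 FIP markers were lower than in control APCs, against 5.91% of all tested genes. Of the 11 APC markers 1 was higher (Icam1, 0.29) and 1 lower (Cd36, −0.35).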

How the data were processed

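The authors deposited 1 table of log2 CPM for 54304 genes in 20 libraries, with 2 decimals. Per the submitters' processing notes, Trim Galore 0.4.1, HISAT2 2.0.1, featureCounts 1.4.6 and DESeq2 1.6.3 were used with GRCm38. The sources used here give neither the annotation nor the strand setting. Names, coordinates and exon lengths come from GENCODE M21 (GRCm38), which matched 54276 genes.

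The step between low values gave 6.605 to 8.505 megareads per library. The fit of this step also allowed positions midway between whole reads, and 12.2% to 16.9% of the low values lay nearest such a position. Whole reads were met within 0.0051 log2 units by 67.4% to 80.7% of the low values, so no count model was used. Genes above 0 in at least 5 libraries (17435) were fitted in limma 3.58.1 (R 4.3.3), on all 20 libraries with a mean for each group, a variance trend, 16 residual degrees of freedom, and Benjamini-Hochberg adjustment over all of them at 0.05. Libraries were taken as independent, although FIP and APC libraries of a genotype share mice, so p-values measure the spread between pools only. The 10 genes and the 14 other lists were chosen with earlier results of these data known. From each other list, at most 4 passing genes per direction and comparison qualified for naming, by smallest adjusted p, if the higher group averaged 2 log2 CPM or more, and some of them are named; values of some single genes are not reported here. The procedure was tested on simulated data, and no result of that test is given or used here. Alternatives were another log scale, filters, scalings and variance models, the compared groups alone, the replicate number as a block, and each library left out; leaving out both shallowest libraries was added after the data were seen.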

Additional observations from a re-analysis of the deposited data

Results flagged for a closer look

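In groups of 5, a library was singled out when its gap to the nearest other library exceeded 0.71 of the group's range (Dixon's 95% critical value). Chance alone singles out about 1 in 20 groups; of the 40 sets of 1 gene in 1 group, 8 were singled out. Genes of 1 library are not independent, and 7 of the 8 belonged to replicate 5 of the APCs labelled transgenic, the shallowest library. It stood at 9.25 log2 CPM for Fos (the other 4 at 9.03 to 9.06), 10.49 for Fosb (10.23 to 10.28), 9.39 for Jun (9.09 to 9.17), 8.84 for Junb (8.55 to 8.63), 7.19 for Jund (6.95 to 7.01), 9.69 for Egr1 (9.40 to 9.47) and 8.68 for Atf3 (8.43 to 8.47). The other was Egr2 in replicate 1 of the APCs labelled transgenic, low at 7.43 against 7.76 to 7.89.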

How the results depend on the processing

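Over 12 settings and 20 fits with 1 library left out, Fosl1 and Fosl2 kept their calls in FIPs against APCs of both genotypes. The number of the 10 genes that passed in control mice was 4, and 2 with libraries centred on their medians. It was 3 without a filter, with a trimmed mean of M-values and with either replicate block. Under quantile normalization and without both shallowest libraries it was 5, and with 1 library left out 3 to 5. In mice labelled transgenic the number was 7, and 8 with centring, a trimmed mean of M-values, array weights or either replicate block. With 1 library left out it was 6 to 8 there. For genotype in APCs it was 1, and 0 without a filter, 0 with only the groups compared and 0 without both shallowest libraries; with 1 library left out it was 0 to 2. The cause was not tested, except that fewer samples or more genes entered those fits. Signs turned for differences near 0. In control mice, FIP against APC, centring gave 0.005 for Fos, 0.011 for Egr1, 0.013 for Egr2 and 0.027 for Atf3, a trimmed mean of M-values gave 0.0137 for Atf3, and quantile normalization 0.03565 for Fosb. With 1 library left out, Egr2 ranged from −0.063 to 0.002 and Atf3 from −0.0475 to 0.018. For genotype in FIPs, Jund ranged from −0.0385 to 0.014 and Egr2 from −0.034 to 0.023; without both shallowest libraries they were 0.0045 and 0.0135, and Egr2 was 0.027515 with array weights. For genotype in APCs, quantile normalization gave −0.0327 for Fos, −0.01495 for Jun and −0.03455 for Junb. With 1 library left out, the ranges were −0.015 to 0.04 for Fos, −0.013 to 0.052 for Fosb, −0.014 to 0.061 for Jun, −0.0255 to 0.047 for Junb and −0.003 to 0.0695 for Egr1; each lowest value is also the one without both shallowest libraries. For the interaction, Fosl2 was −0.067 with centring and −0.031896 with the trimmed mean; with 1 library left out it ranged from −0.0225 to 0.0795 and Fosl1 from −0.135 to 0.061.

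Replicate numbers of the labels were not taken as pairs, since not every correlation exceeded 0.1. Same-numbered libraries deviated together at r = 0.049 to 0.377 (FIP and APC, control) and 0.098 to 0.467 (FIP and APC, labelled transgenic). Between genotypes r was −0.027 to 0.169 in FIPs and −0.398 to 0.217 in APCs. The means between FIPs and APCs were 0.1998 and 0.2504, against −0.049 and −0.064 for other numbers. Deviations sum to 0 within a group, so the means for other numbers largely follow from those for the same number. In these 4 comparisons 3, 3, 2 and 2 of 5 correlated best with their own number. With the replicate block, 3 in place of 4 of the 10 genes passed for FIP against APC in control mice (not Fosb), 8 in place of 7 in mice labelled transgenic (also Egr2), and as without it 0 for genotype in FIPs, 1 in APCs and 0 for the interaction. Over all genes, the count that passed between genotypes in APCs was 1396, and 812 without a filter, 2253 with array weights, 127 without both shallowest libraries and 0 with only the groups compared, with 181 (control replicate 5) to 2837 (replicate 1 labelled transgenic) when 1 library was left out. In FIPs it was 65, and 271 with array weights, 176 with only the groups compared, 101 with the replicate block and 32 without both shallowest libraries, with 9 to 123 when 1 library was left out. The interaction passed 0, 25 with the replicate block within genotype and 0 to 339 with 1 library left out. At these depths a CPM of 1 is 6.605 to 8.505 reads, far below the level of the 10 genes.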
